A study of Mus musculus with 3 samples.

Results

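The genes Mertk, Axl, Gas6, Cd36, Msr1, Marco, Cd5l, Cd163 and Stab1 encode receptors and secreted proteins of efferocytosis, the removal of apoptotic cells, and of scavenging. These 9 genes were taken by symbol from the 32285 genes of the single-cell RNA-Seq (scRNA-Seq) tables, and all 9 were found. Their unique molecular identifier (UMI) counts were summed over the cells of each lineage in each library.

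Phagocytes that clear dying cells recognise phosphatidylserine, a lipid that moves to the outer face of the plasma membrane during apoptosis. The secreted protein Gas6 binds this lipid and bridges it to the receptor tyrosine kinases Mertk and Axl, whose activation starts engulfment. Scavenger receptors bind modified lipoproteins, microbes and cell debris: Cd36 also takes up long-chain fatty acids, Msr1 and Marco are class A receptors of macrophages, Cd163 takes up haemoglobin bound to haptoglobin, Stab1 clears modified proteins and binds phosphatidylserine, and Cd5l is a secreted macrophage protein with scavenger receptor cysteine-rich domains. In the lung, alveolar macrophages are the resident phagocytes of the air space, whereas recruited monocytes give rise to further macrophages after injury.

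The libraries came from left lungs of naive C57BL/6J (B6) mice and from syngeneic transplants of CD45.2 B6 lungs into CD45.1 B6 recipients. Grafts had been kept for 60 minutes at 4 °C and 45 minutes at 28 °C, and were reperfused for 2 hours or 3 days. The mice were 8 to 10 weeks old, differed from each other by the CD45 variant alone as far as the labels name alleles, and cells of 2 mice were pooled in each library. Cells were sorted for CD45.1, the mark of recipient cells, so the resident macrophages that a graft brought from its donor lay outside the gate, and the same staining was given for the naive library. The naive lungs are not labelled CD45.1, so which of their cells the gate kept is unsettled, and this bears on every comparison with them. Each condition had 1 library, so no difference between conditions was tested over mice, no p-value is given, and mouse, preparation and condition cannot be told apart. The study's methods name a 3′ kit, whereas the labels of each library name kits for both ends.

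Of 2921 naive, 10328 2-hour and 9016 3-day cells, 2422, 10283 and 8324 passed the filters, with a median of 7298.5, 878 and 5716.5 UMIs each. The naive and 2-hour libraries shared 8 cell barcodes, the naive and 3-day libraries 1, and the 2-hour and 3-day libraries 23. Clusters took their names from marker genes, none of which was among the 9 genes, and the 9 genes were left out of the clustering. Names such as alveolar macrophage therefore stand for cells that resemble that type by its markers. Alveolar macrophages numbered 102 in naive lung, 1 after 2 hours and 0 after 3 days. Macrophages named from C1q genes (C1q macrophages) numbered 5, 0 and 166, and macrophages named from Arg1 and Saa3 (Arg1/Saa3 macrophages) numbered 0, 4 and 641. Classical monocytes numbered 69, 142 and 773, nonclassical monocytes 72, 194 and 393, neutrophils 387, 4402 and 2152, and endothelial cells 89, 40 and 141. The Arg1/Saa3 cluster also held C1q marker transcripts, 4050 summed counts per 1000000 UMIs (CPM) against 17301 CPM in the C1q cluster, and alveolar macrophage markers summed to 25.4 CPM in it. Endothelial clusters were shallow, at a median of 1249 to 1444 UMIs a cell, and also carried epithelial marker transcripts that summed to 7059 CPM in naive lung, 24913 CPM after 2 hours and 8336 CPM after 3 days.

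Levels are CPM over all UMIs of a lineage, with exact Poisson 95% intervals in square brackets. Ratios between groups are on the log2 scale with exact conditional 95% intervals. Both cover counting error only. A ratio was called where it reached 2-fold and its interval left out no change, among genes with at least 50 UMIs in both groups together. The share of all such genes that was called is given beside the first count for each comparison, since a gene list can be read only against it.

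**Figure D1:**
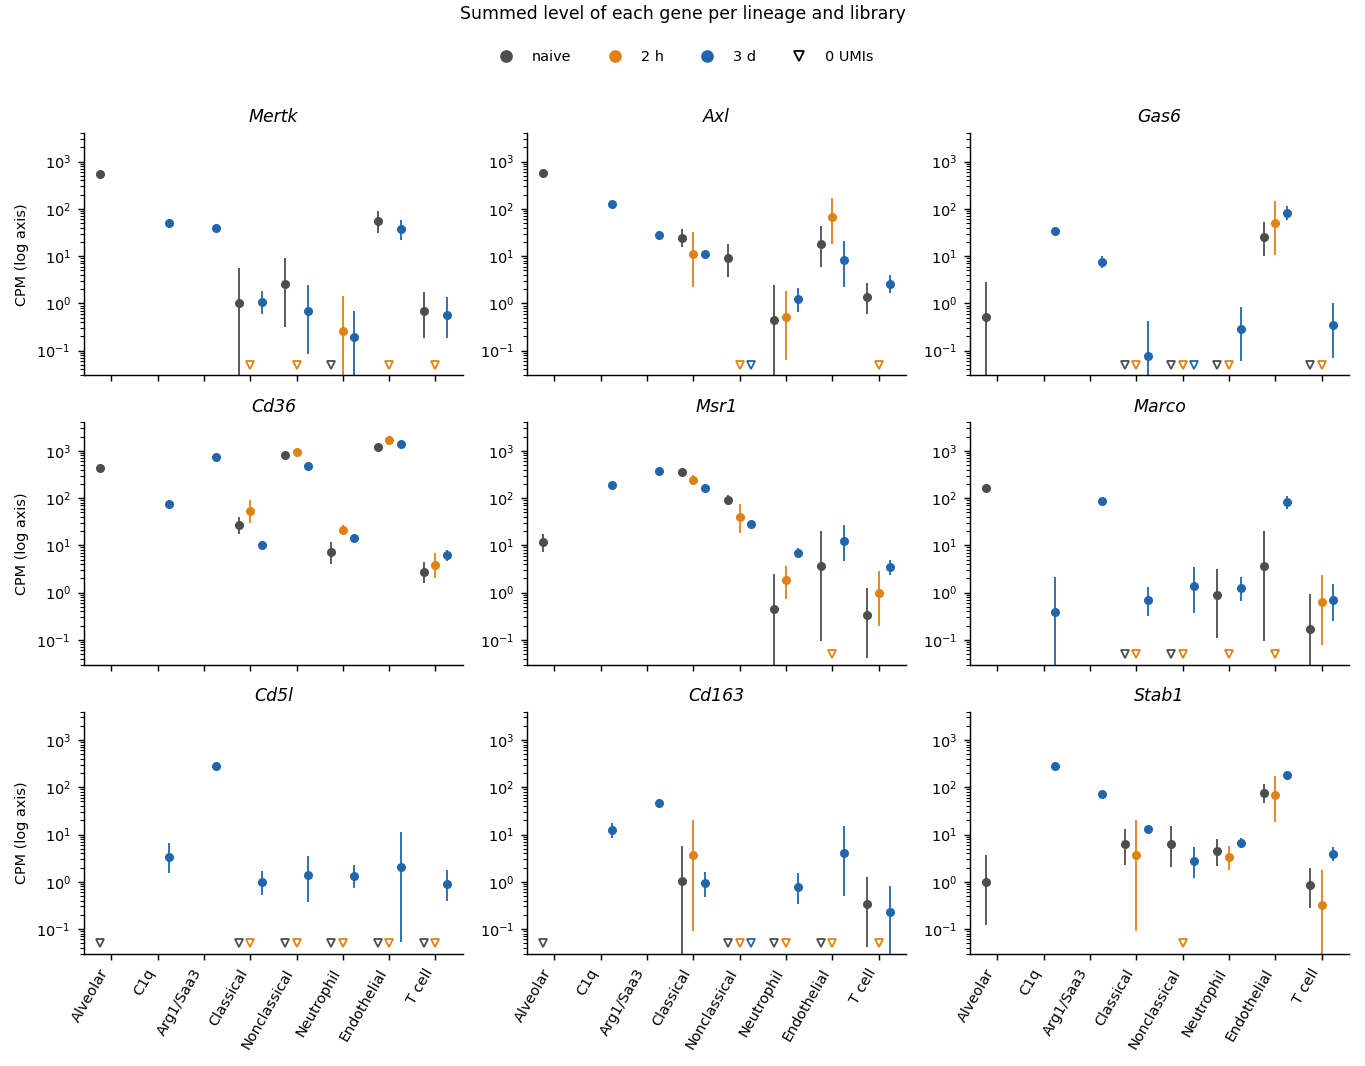
Summed level of each of the 9 genes (CPM, log axis) per lineage, in the naive (grey), 2-hour (orange) and 3-day (blue) libraries. Points are levels, bars are exact Poisson 95% intervals and open triangles mark 0 UMIs. Mertk, Axl and Marco are highest in naive alveolar macrophages, Cd5l and Cd163 in Arg1/Saa3 macrophages at 3 days, and Cd36 in endothelial cells.

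Gas6 (ENSMUSG00000031451; chromosome 8, 13465374 to 13494490, minus strand, GRCm38), the bridging ligand, was found in C1q macrophages and in endothelial cells. It was 34.5 CPM [27.7, 42.3] in C1q macrophages and 7.58 CPM [5.64, 9.96] in Arg1/Saa3 macrophages at 3 days. Endothelial cells had 25.5 CPM in naive lung, 50.5 CPM after 2 hours and 82.6 CPM [59.0, 112] after 3 days, from 7, 3 and 40 UMIs. Naive alveolar macrophages, which held most of the Mertk and Axl UMIs, had 1 Gas6 UMI, or 0.504 CPM. Of the 23 Gas6 UMIs in kept naive cells, 15 lay in the 5 C1q macrophages, beside 8 Mertk and 9 Axl UMIs. Classical monocytes had 0 UMIs in the naive and 2-hour libraries and 1 UMI at 3 days.

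Mertk (ENSMUSG00000014361; chromosome 2, 128698956 to 128802894, plus strand) was highest in naive alveolar macrophages, at 548 CPM [516, 581]. It was 54.7 CPM [30.6, 90.3] in naive endothelial cells, 50.4 CPM [42.2, 59.7] in C1q macrophages and 39.4 CPM [34.8, 44.4] in Arg1/Saa3 macrophages, and the intervals of these 3 overlapped. Classical monocytes held 1.03 CPM in the naive library and 1.08 CPM at 3 days, near the 0.570 CPM of 3-day T cells. In the naive library 98 of 102 alveolar macrophages had a Mertk UMI.

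Axl (ENSMUSG00000002602; chromosome 7, 25757273 to 25788705, minus strand), the other receptor of this family measured here, had a wider range of cells. Its level was 573 CPM [541, 608] in naive alveolar macrophages, where all 102 cells had a UMI, and 129 CPM [116, 144] in C1q macrophages. Dendritic cells had 52.3 CPM in the naive library and 39.2 CPM at 3 days, and Arg1/Saa3 macrophages 28.5 CPM [24.6, 32.9]. Endothelial cells had 18.2, 67.3 and 8.26 CPM in the naive, 2-hour and 3-day libraries, from 5, 4 and 4 UMIs. Classical monocytes had 24.6 CPM [15.8, 36.6] in naive lung, 10.9 CPM from 3 UMIs after 2 hours and 10.9 CPM [9.19, 12.9] after 3 days. Nonclassical monocytes had 8.94 CPM in the naive library and 0 UMIs in both transplant libraries. At 2 hours the interval of the log2 ratio to naive reached 1.25, so no fall was shown. With cells named one by one, 3-day nonclassical monocytes had 3.41 CPM. Between clusters, the Axl intervals of alveolar, C1q and Arg1/Saa3 macrophages thus did not overlap, in this falling order. The alveolar macrophages came from the naive and the others from the 3-day library, so lineage and library cannot be told apart there. For Mertk the intervals of C1q and Arg1/Saa3 macrophages overlapped. Cells outside the filters held 34.4% of the 3-day Axl UMIs. With large cells kept and cells named one by one, Axl was 67.3 CPM [59.1, 76.3] in C1q and 61.5 CPM [54.0, 69.6] in Arg1/Saa3 macrophages, and these intervals overlapped too.

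Cd36 (ENSMUSG00000002944; chromosome 5, 17781690 to 17888801, minus strand) was highest in endothelial cells, which had 1179 CPM [1054, 1315] in naive lung, 1716 CPM [1399, 2083] after 2 hours and 1420.0 CPM [1316, 1530.2] after 3 days. Nonclassical monocytes held 804 CPM [743, 870] in naive lung, 966 CPM [842, 1102] after 2 hours and 487 CPM [462, 513] after 3 days. Classical monocytes held far less in the same libraries, 26.7, 54.3 and 9.91 CPM. Among macrophages, the Arg1/Saa3 cluster had 749 CPM [729, 770.0], naive alveolar macrophages 425 CPM [397, 455] and C1q macrophages 75.7 CPM [65.6, 87.0]. In C1q macrophages 1 cell held 25.5% of the Cd36 UMIs. T cells and B cells of the 3-day library had 6.16 and 23.9 CPM, so the level of 3-day classical monocytes lay between those of lymphocytes.

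Msr1 (ENSMUSG00000025044; chromosome 8, 39581685 to 39642673, minus strand) was high in classical monocytes and in the 3-day macrophages, and low in naive alveolar macrophages. It was 365 CPM [351, 380] in Arg1/Saa3 and 189 CPM [173, 207] in C1q macrophages, but 11.6 CPM [7.35, 17.4] in naive alveolar macrophages. Classical monocytes had 352 CPM [316, 391] in naive lung, 246 CPM [191, 312] after 2 hours and 159 CPM [153, 166] after 3 days. Nonclassical monocytes had 91.9, 39.5 and 28.4 CPM in the same order. Naive classical monocytes and Arg1/Saa3 macrophages could not be separated by their intervals.

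Marco (ENSMUSG00000026390; chromosome 1, 120474538 to 120505024, minus strand), the other class A receptor, lay in few cells. Naive alveolar macrophages had 160.2 CPM [143, 179], and 37 of the 102 cells had a UMI. Arg1/Saa3 macrophages had 86.3 CPM [79.5, 93.6], from 23 of 641 cells. Of their 581 UMIs, 95.4% lay in the 9 cells with at least 10 UMIs, and 2 cells with 147 and 144 UMIs held 50.1%. The 23 cells had Arg1 at 2900 CPM and Saa3 at 9111 CPM and no UMI of the alveolar macrophage genes Ear1 or Siglecf. C1q macrophages had 1 Marco UMI. In 3-day endothelial cells all 40 Marco UMIs came from 1 cell of 12949 UMIs without a UMI of any endothelial marker, and without that cell the level was 0.

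Cd5l (ENSMUSG00000015854; chromosome 3, 87357881 to 87371073, plus strand) was highest in 1 cluster. Arg1/Saa3 macrophages had 278 CPM [266, 291], with a UMI in 268 of 641 cells, whereas C1q macrophages had 3.41 CPM [1.56, 6.47] from 9 UMIs. The 102 alveolar macrophages had 0 UMIs. Neutrophils, T cells and B cells of the 3-day library had 1.35, 0.912 and 1.86 CPM, and classical monocytes 0.999 CPM.

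Cd163 (ENSMUSG00000008845; chromosome 6, 124304656 to 124330527, plus strand) was 46.8 CPM [41.8, 52.3] in Arg1/Saa3 macrophages, with a UMI in 84 cells and 39 UMIs in the highest. C1q macrophages had 12.5 CPM [8.60, 17.6] from 33 UMIs in 5 cells, 1 of which held 54.5% of them. Alveolar macrophages had 0 UMIs. With cells named one by one, 3-day C1q macrophages had 60.8 CPM and Arg1/Saa3 macrophages 19.5 CPM. In the naive library, 17 of the 34 Cd163 UMIs in kept cells lay in the 5 C1q macrophages. These 5 cells had 45288 UMIs in all and were too few for a level.

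Stab1 (ENSMUSG00000042286; chromosome 14, 31139013 to 31168641, minus strand) was higher in C1q than in Arg1/Saa3 macrophages. C1q macrophages had 279 CPM [259, 300.0] and Arg1/Saa3 macrophages 72.8 CPM [66.5, 79.6], whereas naive alveolar macrophages had 1.01 CPM. Endothelial cells had 76.6 CPM [47.4, 117] in naive lung, 67.3 CPM from 4 UMIs after 2 hours and 180 CPM [144, 221] after 3 days. Classical monocytes had 6.16, 3.62 and 12.9 CPM in the same order, beside 3.88 CPM in T cells and 4.85 CPM in B cells at 3 days. The 5 naive C1q macrophages held 35 of the 101 Stab1 UMIs of kept naive cells.

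**Figure D2:**
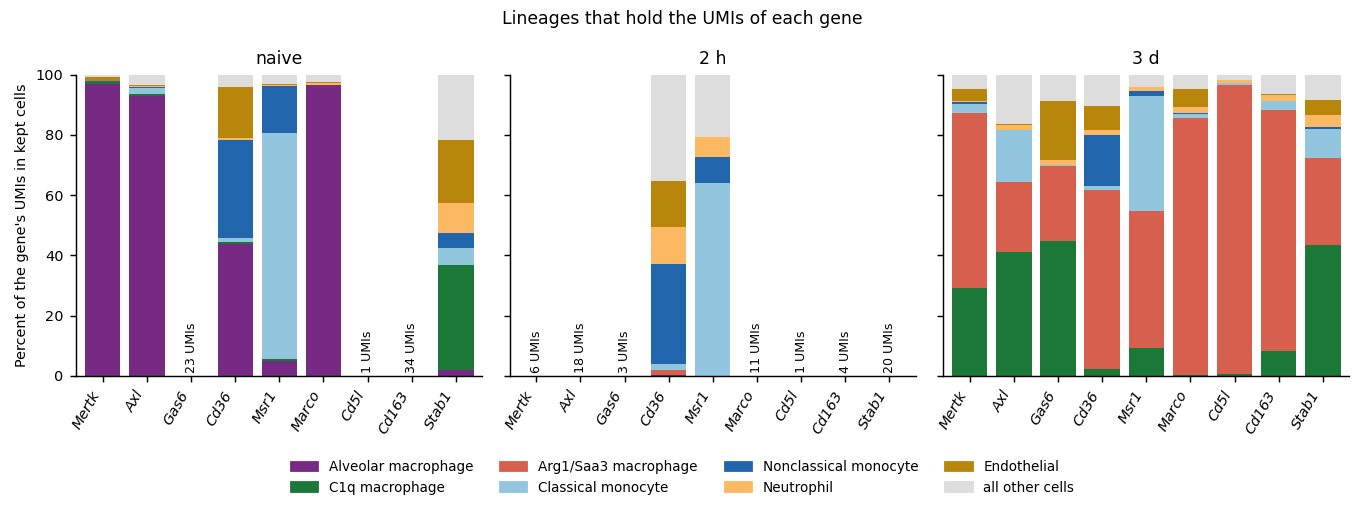
Share of each gene's UMIs in kept cells (percent) held by each lineage, per library. Genes with under 50 UMIs in a library have no bar and their UMI count is printed. Alveolar macrophages hold 96.7% of naive Mertk UMIs, and Arg1/Saa3 macrophages 96.0% of Cd5l UMIs at 3 days.

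The plot of UMI shares shows which cells carried each transcript, a quantity set by the number of cells, their depth and the level together, and by the sort. In the naive library alveolar macrophages held 96.7% of Mertk, 92.8% of Axl and 96.7% of Marco UMIs, whereas classical monocytes held 74.9% of Msr1 UMIs. Cd36 was spread, with 43.7% in alveolar macrophages, 32.6% in nonclassical monocytes and 16.7% in endothelial cells. At 3 days Arg1/Saa3 macrophages held 96.0% of Cd5l, 85.3% of Marco, 79.7% of Cd163, 59.2% of Cd36 and 58.1% of Mertk UMIs. C1q macrophages held the largest share of Gas6 at 44.6%, of Stab1 at 43.4% and of Axl at 41.2%. Msr1 was divided between Arg1/Saa3 macrophages, with 45.4%, and classical monocytes, with 38.3%. The 2-hour library held 667 Cd36 and 106 Msr1 UMIs in kept cells but at most 20 of any of the other 7 genes, so only these 2 could be followed at 2 hours.

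Cells were also thinned to 500 UMIs each to compare shares of cells with a UMI at 1 depth. Cd36 was found in 30.1% (Clopper-Pearson 95% interval 26.6% to 33.8%) of Arg1/Saa3 macrophages and 2.41% of C1q macrophages, and Cd5l in 13.4% (10.9% to 16.3%) of Arg1/Saa3 macrophages. Stab1 was found in 10.2% (6.08% to 15.9%) of C1q and 3.28% (2.04% to 4.96%) of Arg1/Saa3 macrophages. In T cells of the same library, which should lack these genes, Cd36 and Stab1 were each found in 0.0990% of cells and Cd5l in 0 of 1010 cells, which allows a share of up to 0.297%. Unthinned, the Cd36 shares were 84.9% of Arg1/Saa3 macrophages, 28.3% of C1q macrophages and 4.46% of T cells, at median depths of 9835, 16641 and 8180 UMIs. No cell of these 3 groups fell under 500 UMIs.

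The first comparison asked how the C1q and Arg1/Saa3 macrophages of the 3-day library differed from each other. All 9 genes passed the UMI minimum, Marco, Cd5l and Cd163 through the Arg1/Saa3 side alone, and 7 of them were called, against 14.9% of all genes. Of the 6 genes with at least 50 UMIs on each side, 4 were called. The direction of the other 3 was set by the filter. Higher in C1q macrophages were Gas6, with a log2 ratio of 2.19 [1.68, 2.71], Axl, with 2.18 [1.92, 2.44], and Stab1, with 1.94 [1.77, 2.11]. These are the ligand, its receptor Axl, and a protein that counts both as a phosphatidylserine receptor and as a scavenger receptor. Higher in Arg1/Saa3 macrophages were Marco, with -7.83 [-13.14, -5.35], Cd5l, with -6.35 [-7.48, -5.42], Cd36, with -3.31 [-3.52, -3.10], and Cd163, with -1.91 [-2.47, -1.39], all scavenger receptors or relatives of them. Mertk, at 0.36 [0.04, 0.66], and Msr1, at -0.95 [-1.09, -0.81], stayed under 2-fold. The median of the 9 genes was -0.95 beside -0.10 over all genes tested.

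This division depended on how the lineages were drawn. When each cell was named from its own marker UMIs, without clusters, 282 of the 641 cells of the Arg1/Saa3 cluster kept that name. Of the others, 127 were named C1q macrophages and 146 stayed unnamed. The rest took names of other lineages, among them 39 neutrophils, 25 monocytes and 17 B cells. Within the cluster, Cd163 was 104 CPM [88.3, 122] in the 127 cells and 21.9 CPM [16.9, 28.0] in the 282, and Cd5l was 325 CPM and 256 CPM. The log2 ratio of C1q over Arg1/Saa3 macrophages was then 1.64 for Cd163, the reverse of its direction between clusters. It was -0.52 for Cd5l, -0.78 for Cd36 and 0.61 for Axl, all under 2-fold. Gas6 at 1.90, Stab1 at 1.76 and Marco at -1.25 kept their direction and stayed past 2-fold. The Marco ratio hangs on the names of few cells, since 9 cells held 95.4% of the Marco UMIs of the cluster. With the large cells that the filters remove kept as well, the log2 ratio was 1.0 for Cd163, -0.43 for Cd5l, -0.81 for Cd36 and 0.13 for Axl. The 127 cells carried C1qa at 1840 CPM and the 282 cells at 539 CPM, while Arg1 was 2958 and 2909 CPM and Saa3 7018 and 7017 CPM.

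**Figure D3:**
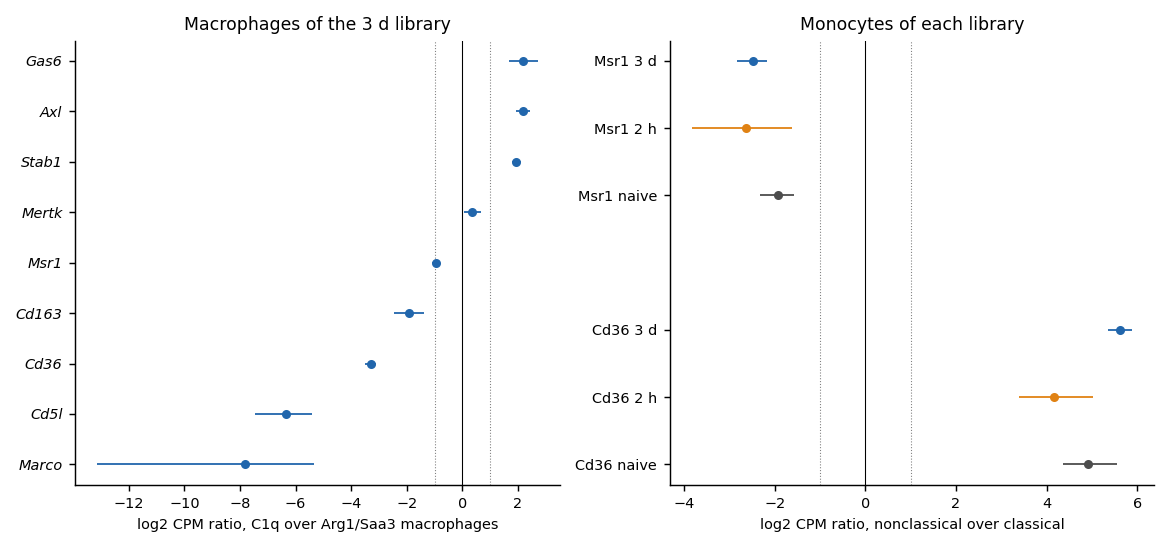
Log2 CPM ratios between lineages within a library: C1q over Arg1/Saa3 macrophages at 3 days for the 9 genes (left), and nonclassical over classical monocytes for Msr1 and Cd36 in each library (right). Points are ratios, bars exact conditional 95% intervals and dotted lines 2-fold. Gas6, Axl and Stab1 lie past 2-fold on the C1q side, and Cd36 and Msr1 have opposite signs in monocytes of all 3 libraries.

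Genes of the pathway were also read from lists by role. These lists include genes of the 9, among them Gas6, Axl, Stab1, Marco, Cd5l and Cd36, so their counts repeat calls given above. The other listed genes, unlike the 9, took part in the clustering, and C1qa, C1qb and C1qc also named the C1q cluster. Ratios of these other genes therefore describe the clusters. Of 7 bridging molecules and opsonins tested, 5 were higher in C1q macrophages and 0 lower, among them C1qb at 2311 against 525 CPM and C1qa at 2698 against 937 CPM. Of 7 phosphatidylserine receptors tested, 4 were higher and 0 lower. Havcr2, which encodes Tim-3, was 66.3 against 10.8 CPM, and Itgb5, an integrin subunit that works with the opsonin Mfge8, was 259 against 62.7 CPM. Of 13 scavenger receptors 3 were higher and 5 lower, with Marco, Cd5l and Cd36 leading. Among 6 receptors for find-me and don't-eat-me signals, 2 were higher and 1 was lower: the fractalkine receptor Cx3cr1 was 490.5 against 79.0 CPM, the nucleotide receptor P2ry6 157 against 52.5 CPM, and the sphingosine phosphate receptor S1pr1 34.8 against 111 CPM. In the lipid-handling list Apoe, an apolipoprotein and a marker of the C1q cluster, was 9764 against 1580 CPM, and Lpl, lipoprotein lipase, was 229 against 808 CPM, whereas the other 8 of 10 were not called. In the haem and iron list 1 of 4 was called, the haem-degrading enzyme Hmox1, at 256 against 902 CPM. Of 8 engulfment genes tested 1 was called, Elmo1, at 117 against 45.9 CPM.

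Promoter sequences are shown for the 2 genes with the largest ratio between clusters on each side that the RefSeq table holds. These were Gas6 and Axl on the C1q side and Marco and Cd5l on the Arg1/Saa3 side. The direction of Marco and Cd5l was set by the filter, and Axl and Cd5l were under 2-fold with cells named one by one. Each runs 5′ to 3′ on the gene's strand, from 250 bases before to 50 bases after the start (RefSeq, GRCm38.p6), with the core of the myeloid factor PU.1 motif (GAGGAA, on either strand) in capitals.
Gas6, chr8:13494486-13494785, minus strand: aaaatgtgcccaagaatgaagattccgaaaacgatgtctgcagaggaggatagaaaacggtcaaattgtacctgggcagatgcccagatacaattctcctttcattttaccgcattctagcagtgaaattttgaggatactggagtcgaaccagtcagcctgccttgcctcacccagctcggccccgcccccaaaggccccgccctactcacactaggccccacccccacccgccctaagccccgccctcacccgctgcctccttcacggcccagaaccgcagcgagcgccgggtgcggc
Axl, chr7:25788684-25788983, minus strand: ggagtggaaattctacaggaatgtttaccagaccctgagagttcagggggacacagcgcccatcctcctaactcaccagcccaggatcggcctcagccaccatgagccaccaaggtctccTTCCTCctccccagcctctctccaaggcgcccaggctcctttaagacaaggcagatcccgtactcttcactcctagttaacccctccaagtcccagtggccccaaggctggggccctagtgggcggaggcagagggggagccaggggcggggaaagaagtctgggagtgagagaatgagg
Marco, chr1:120504975-120505274, minus strand: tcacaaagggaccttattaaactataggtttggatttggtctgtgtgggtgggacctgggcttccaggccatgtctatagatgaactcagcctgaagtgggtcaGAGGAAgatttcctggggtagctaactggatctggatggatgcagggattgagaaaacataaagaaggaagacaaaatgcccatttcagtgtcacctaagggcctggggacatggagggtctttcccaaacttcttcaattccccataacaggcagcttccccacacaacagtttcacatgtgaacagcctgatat
Cd5l, chr3:87357631-87357930, plus strand: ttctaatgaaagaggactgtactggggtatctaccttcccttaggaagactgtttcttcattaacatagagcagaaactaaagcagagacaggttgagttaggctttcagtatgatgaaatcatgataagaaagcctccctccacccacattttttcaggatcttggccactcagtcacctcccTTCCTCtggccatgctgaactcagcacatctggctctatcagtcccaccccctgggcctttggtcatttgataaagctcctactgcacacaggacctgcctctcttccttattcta

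Of the 8 of the 9 genes with an entry, the motif was in the windows of Axl, Marco, Cd5l and Stab1, and it was in 28.3% of 27025 promoters. Among other letters searched, on either strand and with overlaps of a few bases allowed, were AGGTCA, the nuclear receptor core, in 16.0% of promoters, and CACGTG, the E-box, in 7.24%. AGGTCA was in the window of Cd36, and CACGTG in none of the 8. These are matches of letters in a 300-base window and not binding sites.

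Against classical monocytes of the 3-day library, both macrophage types carried more of most of the 9 genes. In Arg1/Saa3 macrophages all 9 were called higher, against 28.3% of all genes called in either direction, and the log2 ratio ran from 1.2 [1.11, 1.28] for Msr1 to 8.12 [7.34, 9.03] for Cd5l. Mertk, Gas6, Marco, Cd5l and Cd163 passed the UMI minimum only through the macrophage side, so their direction was set by the filter. For genes with at least 50 UMIs on each side, the ratios were 6.24 for Cd36, 2.50 for Stab1, 1.39 for Axl and 1.2 for Msr1. In C1q macrophages 6 genes were tested and 5 called higher, against 20.1% of all genes, Mertk and Gas6 again through the macrophage side alone. Of those with at least 50 UMIs on each side, Stab1 had 4.43 [4.19, 4.69], Axl 3.57 [3.28, 3.86] and Cd36 2.93 [2.61, 3.27], while Msr1 had 0.25 [0.10, 0.39] and was not called. Of the genes tested, Msr1 had the smallest ratio in both comparisons.

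Nonclassical and classical monocytes differed in opposite directions for Cd36 and Msr1 in each library, as the plot of ratios between lineages shows. In the naive library, where 17.6% of all genes were called, the log2 ratio of nonclassical over classical monocytes was 4.91 [4.35, 5.54] for Cd36 and -1.94 [-2.32, -1.57] for Msr1. At 2 hours, with 18.4% of all genes called, the ratios were 4.15 [3.40, 5.01] and -2.64 [-3.83, -1.63]. At 3 days, with 20.9% of all genes called, they were 5.62 [5.36, 5.89] and -2.49 [-2.83, -2.17]. Stab1 at 3 days had -2.24 [-3.48, -1.23]. Axl, with 142 UMIs in classical and 0 in nonclassical monocytes, was 10.6-fold lower with the latter set at a floor of 3 UMIs over the group. The exact interval of its log2 ratio ended at -3.095. With monocytes named cell by cell, Axl was 12.9 CPM in classical and 3.41 CPM in nonclassical cells. Cd36 in the naive and 2-hour libraries, Msr1 at 2 hours, and Stab1 and Axl at 3 days passed the UMI minimum only through the monocyte type where they were higher, so their direction was set by the filter. Msr1 in the naive library and both Cd36 and Msr1 at 3 days had at least 50 UMIs in each type.

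The listed genes other than the 9 were not left out of the clustering of monocytes, so their ratios describe that split. Pparg, a nuclear receptor that controls Cd36 in many cells, was 777 CPM in nonclassical and 27.7 CPM in classical monocytes of the naive library. At 3 days it was 116 against 3.84 CPM, and the log2 ratios were 4.81 and 4.91. In the naive library Pparg passed the UMI minimum through the nonclassical side alone. Whether it controls Cd36 in these cells was not tested. The cholesterol exporter Abcg1 was 244 against 51.8 CPM at 3 days, a ratio of 2.24, and Lpl 12.3 against 42.1 CPM, a ratio of -1.77. Of 10 lipid genes tested at 3 days 3 were higher and 1 was lower, with a median of 0.58 beside 0.19 over all genes. Of 6 bridging genes 2 were lower: Thbs1, which encodes thrombospondin, a Cd36 ligand, was 211 against 2912 CPM, and C1qb 12.3 against 25.9 CPM, beside 10.7 CPM of C1qb in T cells. Of 7 phosphatidylserine receptors 2 were higher and 3 lower, Axl and Stab1 among the latter.

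**Figure D4:**
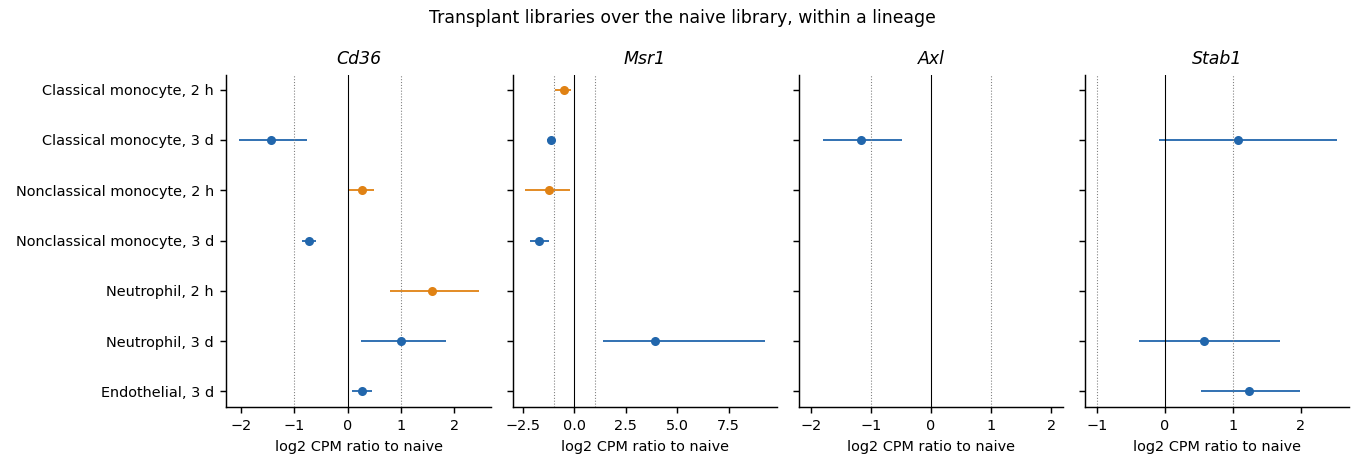
Log2 CPM ratios of the 2-hour (orange) and 3-day (blue) libraries over the naive library within a lineage, for the 4 genes that passed the UMI minimum in any such comparison. Points are ratios, bars exact conditional 95% intervals and dotted lines 2-fold. Msr1 is lower than naive in both monocyte types and higher in neutrophils at 3 days. The ratios are not adjusted for intron length.

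Between libraries the question was how these genes changed within a lineage after transplantation. All comparisons with the naive library share its cells. In classical monocytes at 3 days 4 of the 9 genes were tested and 3 fell, against 17.8% of all genes called and 13.1% called lower. The log2 ratio to naive was -1.17 [-1.80, -0.48] for Axl, -1.43 [-2.05, -0.76] for Cd36 and -1.14 [-1.31, -0.97] for Msr1. Stab1 had 1.07 [-0.08, 2.54] and was not called. At 2 hours only Msr1 was tested, with -0.52 [-0.91, -0.14] and no call, against 36.3% of all genes. From 2 hours to 3 days Cd36 fell by 2.45 on the log2 scale [-3.23, -1.57], 1 call in 4 genes tested against 14.5% of all genes, whereas Msr1 had -0.63 [-0.98, -0.26].

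In nonclassical monocytes Msr1 fell at both times, by 1.22 on the log2 scale at 2 hours [-2.40, -0.21] and by 1.70 at 3 days [-2.17, -1.22]. It was the 1 call of 2 genes tested in each, against 41.2% and 19.4% of all genes, and at 2 hours it passed the UMI minimum through the naive side alone. Cd36 had 0.26 [0.04, 0.49] at 2 hours and -0.72 [-0.86, -0.59] at 3 days, without a call. The ratio of 3 days over 2 hours was -0.99 [-1.19, -0.78] for Cd36 and -0.48 [-1.47, 0.70] for Msr1, so 0 of 2 were called against 17.9% of all genes.

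Intron length moved with these ratios. The naive counts came from another Cell Ranger version, 7.1.0 against 6.0.0, and genes with long introns were higher in the naive library in every lineage where this was computed. Cd36 has 103.5 kb of introns, and among genes with over 100 kb the median log2 ratio of naive over 3 days was 1.17 in classical and 1.32 in nonclassical monocytes. Mertk has 99.6 kb and Msr1 54.6 kb, and in the class of 50 to 100 kb the medians were 0.51 and 0.52. The other 6 genes have 11.2 to 28.6 kb, a class with medians of -0.03 and -0.13. Relative to the median of its class, the 3-day ratio to naive in classical monocytes was -0.26 for Cd36, -0.64 for Msr1 and -1.2 for Axl, so Axl alone kept its call, and in nonclassical monocytes it was 0.59 for Cd36 and -1.17 for Msr1. At 2 hours in nonclassical monocytes Msr1 came to -0.09 on this scale and lost its call, and Cd36 came to 2.24 and gained one. In classical monocytes at 2 hours Msr1, which had no call, went from -0.52 to 0.38. The ratios between lineages of 1 library do not set these software versions against each other.

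Among the role lists, of 8 engulfment genes tested in classical monocytes at 3 days over naive, 0 rose and 3 fell. Those that fell were led by Elmo1 with -2.45 and Dock2 with -2.00, which encode parts of Rac-activating complexes. The list median was -0.57 beside 0.02 over all genes. Set over the median of the intron class, 1 of the 8 was past 2-fold in place of 3. In the scavenger receptor list 2 were in place of 3, and Cd36, at -0.26, and Msr1, at -0.64, were not among these 2. Of 10 lipid genes Nr1h3, the liver X receptor alpha, rose by 1.53 and Abca1, a cholesterol exporter, by 1.19, whereas Pparg fell by 2.85. In the haem and iron list Hmox1 fell by 1.44. Of 10 scavenger receptors 3 fell, Cd36, Msr1 and Olr1, the last named after its values were seen, with -1.0. C1qa, C1qb and C1qc went from 0 UMIs to 10.9, 25.9 and 12.5 CPM, beside 10.6, 10.7 and 6.61 CPM in T cells and 13.4, 13.7 and 12.9 CPM in B cells of the same library.

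Neutrophils, whose apoptosis makes them the main cargo of efferocytosis in inflamed lung, held low levels. Cd36 was 7.12 CPM [4.07, 11.6] in naive lung, 21.4 CPM [17.1, 26.5] after 2 hours and 14.3 CPM [12.1, 16.8] after 3 days. The ratio to naive was 1.59 [0.80, 2.46] at 2 hours, the 1 gene of the 9 tested there, against 32.9% of all genes called, and 1.01 [0.26, 1.85] at 3 days. Msr1 was 0.445 CPM from 1 UMI, 1.81 CPM from 7 and 6.82 CPM from 71, and rose by 3.94 [1.41, 9.26] at 3 days over naive. Stab1 had 0.57 [-0.39, 1.70], so 2 of 3 genes were called at 3 days, against 25.2% of all genes. Both calls, and those of Cd36 at 2 hours and of Msr1 over 2 hours, are of genes that passed the UMI minimum through the library where they were higher, so their direction was set by the filter. From 2 hours to 3 days Msr1 rose by 1.92 [0.80, 3.28], 1 of 3 genes tested, against 22% of all genes. B cells of the 3-day library had as much, 6.43 CPM of Msr1 and 23.9 CPM of Cd36, and T cells had 3.42 and 6.16 CPM, while C1qa stood at 15.3 CPM in neutrophils, 10.6 CPM in T cells and 13.4 CPM in B cells. After log-normalization none of the 9 genes was called at 2 hours over naive. With lineages named cell by cell, neutrophils had 46.1 CPM of Cd36 at 2 hours and 28.9 CPM at 3 days, and 20.7 CPM of Msr1 at 3 days. With the T cell level subtracted the ratio of Cd36 at 3 days over naive was 0.90 and lost its call. With called doublets removed the ratio was 1.40 for Cd36 and 2.07 for Msr1, both called. Over the median of its intron class the Cd36 ratio to naive was 3.03 at 2 hours and 2.22 at 3 days.

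Endothelial cells could be compared between the naive and 3-day libraries only, since 40 cells at 2 hours were too few. Endothelial cells do not bear CD45, the marker of the sort. Of 2 genes tested 1 was called, against 24.1% of all genes: Stab1 rose by 1.23 [0.53, 1.99], having passed the UMI minimum through the 3-day side alone. Of the 87 Stab1 UMIs at 3 days 39.1% lay in 1 cell. With called doublets removed the ratio was 0.69, and with every cell weighing the same 0.57, both under 2-fold. Clustering at resolution 0.4 or 1.2, clustering with the 9 genes kept, and naming cell by cell gave 0.84, 0.90, 0.71 and 0.95. Cd36 had 0.27 [0.08, 0.46] and was not called. Among genes with over 100 kb of introns, as Cd36 has, the median log2 ratio of naive over 3 days was 1.17 in endothelial cells. Relative to that median, Cd36 at 3 days over naive came to 1.44 and gained a call. Gas6 was not tested, with 47 UMIs in both groups together.

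Within the Arg1/Saa3 cluster the genes did not all lie in the same cells. The cluster also held cells that took other names one by one, so it is not 1 cell type alone. In the 549 cells with at least 5000 UMIs, each thinned to 5000, Cd5l was in 40.5% [35.7, 45.5] of cells with and 23.2% [16.6, 31.1] of cells without an Msr1 UMI. Beside Axl the order was the opposite, with Cd5l in 14.6% [5.57, 29.2] of the 41 cells with and 37.8% [33.6, 42.2] of the 508 cells without an Axl UMI. Cd36 was in 78.6% of cells with and 78.0% of cells without a Mertk UMI. In the 159 C1q macrophages treated in the same way, Stab1 was in 33.9% [22.3, 47.0] of the 62 cells with and 63.9% [53.5, 73.4] of the 97 cells without an Axl UMI, and Cd36 in 6.45% and 21.6%. Gas6 was seen in few C1q macrophages of either kind, 4.84% [1.01, 13.5] of those with an Axl UMI and 11.3% [5.80, 19.4] of those without. These intervals overlapped, so ligand and receptor could not be said to lie apart. Clopper-Pearson intervals in brackets cover counting of cells of 1 library only.

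Across 27 units, each 1 lineage in 1 library with at least 50 cells, the genes whose log2(CPM + 10) was most like each member were named as a description, since the units share libraries. Mertk was nearest to Fblim1 (r = 0.97), Snx24 (0.96) and Hebp1 (0.96), and Axl to Nceh1 (0.93), Hebp1 (0.92) and Sh3pxd2b (0.90), all highest in naive alveolar macrophages. Gas6 was nearest to Cbr2 (0.94), a C1q marker here, Wwc1 (0.93) and Stab1 (0.92), and Stab1 to Pf4 (0.95), Pdgfa (0.93) and Gas6 (0.92). Cbr2 and Wwc1 were, like Gas6, highest in 3-day endothelial cells. Cd36 was nearest to Klf4 (0.90), Jup (0.89) and Laptm4a (0.88), highest in endothelial cells, and Msr1 was close to Ifi211 (0.89) and Mcub (0.89), highest in classical monocytes. Cd5l was nearest to Car6 (0.99), Mlxipl (0.97) and Ccl24 (0.96), Cd163 to Fcna (0.91), Flrt3 (0.90) and Tnfsf9 (0.87), and Marco was close to Slc7a2 (0.88) and Ptges (0.83). Among the 9 genes themselves Mertk and Axl had 0.84, and Mertk and Msr1 0.17.

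Both transplant libraries carried counts of 277 antibody features and 4 of these name proteins of these genes (MERTK, CD36, CD204 for Msr1 and CD163). Each had between 0 and 3 counts in every lineage analysed. In Arg1/Saa3 macrophages, where all 4 transcripts were found, they had 1, 0, 2 and 0 counts. Per 10000 antibody counts these were 0.048, 0, 0.096 and 0, below the median isotype control of 15.1. No protein level was read from these 4 features.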

How the data were processed

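Left lung cells of naive B6 mice and of transplants reperfused for 2 hours or 3 days were analysed, with 1 library per condition. The deposited tables hold raw UMI counts per gene and cell, which the authors made with Cell Ranger. The file headers name version 7.1.0 for the naive and 6.0.0 for the transplant libraries, and the submitters' processing notes name Cell Ranger 6, Seurat 4 and mm10. The members and lists were chosen with earlier results of these data known.

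Cells with over 200 and under 6000 genes, under 25000 UMIs and under 10% mitochondrial UMIs were kept. This removed 499 naive, 45 2-hour and 692 3-day cells. Total UMIs over all genes were 28538529, 10749100 and 70750470. Cells were clustered in R 4.3.3 with Seurat 5.3.0 and sctransform 0.4.2 (3000 variable features, of which 8 were members and left out, 30 principal components, resolution 0.8). A cluster took a name where at least 3 markers and the median log2 marker ratio lay over 1. Monocytes were clustered again within each library (2000 variable genes, 10 components, resolution 0.1) and split into classical and nonclassical cells. Of the monocytes, 111 at 2 hours and 56 at 3 days were neither. Clusters that met the marker limits still stayed unnamed where markers of another type led their top genes or 2 types were about equal. In the naive, 2-hour and 3-day libraries 8, 308 and 536 cells stayed unnamed. Doublets were called with Scrublet in scanpy 1.11.5, which marked 40, 403 and 277 kept cells. They stayed in, and were removed in an alternative.

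Counts were summed per lineage and library with Python 3.11.15, numpy 2.4.6, pandas 2.3.3 and scipy 1.17.1. Levels were computed for lineages of at least 20 cells, and ratios where both groups had at least 50. A group at 0 was set at a floor of 3 UMIs. Gene positions came from GENCODE vM21. Named were the 9 genes, the 3 genes with the largest ratio in each of 7 role lists (63 genes) and the 3 most alike to each member among 7578 genes that reach 50 CPM in a unit. Some of the latter are not reported here. On simulated data for nonclassical over classical monocytes at 3 days (9339 genes, 200 changed by a log2 ratio of 1.93), the median recovered was 1.94, all changed genes were called, and 0.471% of the others were. Alternatives covered the clustering, naming, filters, doublets, scaling and UMI minimum.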

Additional observations from a re-analysis of the deposited data

Results flagged for a closer look

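Most naive UMIs of Mertk, Axl, Cd36 and Marco lay in cells outside the filters, which the comparisons did not use. The same held for the few naive UMIs of Gas6, with 51.1% of 47, and of Cd5l. The removed cells held 73.9% of Mertk, 72.8% of Axl, 63.2% of Cd36 and 76.5% of Marco UMIs of the naive library. Named cell by cell with large cells kept, alveolar macrophages numbered 264 in place of 102. Their levels were then 540 CPM for Mertk, 561 CPM for Axl, 479 CPM for Cd36 and 181 CPM for Marco, close to the filtered values. Of 43 naive Cd5l UMIs, 42 lay in removed cells, and 2 cells held 21 and 20 of them.

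The ratio of 3 days over naive had opposite signs in different lineages for 2 genes, and the difference between lineages was not tested. Cd36 had 1.01 in neutrophils and -1.43 in classical monocytes. Msr1 had 3.94 in neutrophils, -1.14 in classical and -1.70 in nonclassical monocytes. The neutrophil values rest on 16 and 149 UMIs for Cd36 and on 1 and 71 UMIs for Msr1. Both genes passed the UMI minimum there through the 3-day library alone, so their direction was set by the filter. Over the median of the intron class, classical monocytes had -0.26 for Cd36 and -0.64 for Msr1, both under 2-fold. On this scale nonclassical monocytes had -1.17 for Msr1, and neutrophils had 2.22 for Cd36 and 4.385 for Msr1.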

How the results depend on the processing

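No paired analysis was possible because each condition had 1 library, so no replicate could be left out either. Of the values that answer a comparison, 275 counted as unchanged over the alternatives, 65 moved and 2 lost their call. Of the other values 2221 counted as unchanged, 350 moved, 21 lost a call, 24 gained one and 2 reversed. A ratio under 2-fold could count as unchanged though its sign turned, and a list count though it differed. Msr1 in classical monocytes at 2 hours over naive, for example, went from -0.52 to 0.38 over the intron class median. The cause of a change was not tested where none is named. Below, a count is of member genes past 2-fold, with the value as reported in parentheses.

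With a minimum of 20 UMIs classical monocytes at 2 hours over naive had 1 (0) and endothelial cells at 3 days over naive 3 (1). With a minimum of 200, where fewer genes are tested, the counts were 1 (3) for classical monocytes at 3 days over naive and 0 (1) over 2 hours, 0 (1) for nonclassical monocytes over naive at each time, 0 (1), 0 (2) and 0 (1) for neutrophils at 2 hours over naive, 3 days over naive and 3 days over 2 hours, 0 (1) for endothelial cells, 1 (2) and 2 (4) for nonclassical over classical monocytes at 2 hours and 3 days, and 3 (5) for C1q macrophages over classical monocytes. Set over the median of the intron class, classical monocytes at 3 days over naive had 1 (3), nonclassical at 3 days over 2 hours 1 (0) and endothelial cells 2 (1). Set over the median of all genes, nonclassical monocytes had 0 (1) at 2 hours over naive and 1 (0) at 3 days over 2 hours, and neutrophils 1 (2) at 3 days over naive.

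With lineages named cell by cell, the counts were 2 (1) for nonclassical monocytes at 3 days over naive, 1 (0) over 2 hours, 3 (1) for neutrophils at 3 days over 2 hours, 0 (1) for endothelial cells, 4 (7) for C1q over Arg1/Saa3 macrophages and 8 (5) for C1q macrophages over classical monocytes. Cd163 reversed to 1.64 and Cd5l had -0.52, while levels were 222 CPM (279) for Stab1 in C1q macrophages, 228 CPM (278) for Cd5l in Arg1/Saa3 macrophages and 2129 CPM (1420.0) for Cd36 in 3-day endothelial cells. With large cells kept as well, these counts were 2, 1 and 3, with 4 (2) for neutrophils at 3 days over naive, 3 (7) and 8 for the macrophage comparisons, Cd163 reversed to 1.0 and Cd5l had -0.43, and levels were 232, 219 and 2129 CPM.

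With doublets removed, nonclassical monocytes at 3 days over 2 hours had 1, endothelial cells 0 and Cd36 in them 1587 CPM. Outside ribosomal and mitochondrial genes, these monocytes had 1 and neutrophils at 3 days over 2 hours 2, with Mertk in alveolar macrophages at 616 CPM (548), Stab1 at 339, Cd5l at 314 and endothelial Cd36 at 1597 CPM. With T cell levels subtracted these counts were 1 and 2, and neutrophils at 3 days over naive had 1. After log-normalization neutrophils had 0 at 2 hours over naive and 3 at 3 days over 2 hours, endothelial cells 2, and Stab1 246 CPM. Resolution 1.2 gave neutrophils 1 at 3 days over naive, endothelial cells 0 and Cd36 1090.0 CPM. Members kept for clustering gave the same 1 and Cd36 886 CPM. Resolution 0.4 gave no C1q lineage. It also left 3 monocytes in the 2-hour library in place of 447, so no comparison of 2-hour monocytes could be made there. At this resolution endothelial cells had 2, with Cd5l at 198 and endothelial Cd36 at 920.3 CPM. With every cell weighing the same, endothelial cells had 0, Stab1 302, Cd5l 303 and endothelial Cd36 1282 CPM. A split of 3-day monocytes by the clusters of all cells, and endothelial cells without the Marco cell, were added after seeing the data.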
